A study of Mus musculus with 6 samples.

Results

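The genes described here are 10 genes of the unfolded protein response and of the integrated stress response: Hspa5, Hsp90b1, Calr, Xbp1, Ddit3, Atf4, Atf3, Trib3, Asns and Chac1. They were matched by gene symbol in a table of 23284 genes, and each has 1 row. The RNA came from ventricles of E9.5 embryos, labelled C57BL/6 and made with B6J ES cells, with 3 embryos in the wild type (WT) group and 3 in the knockdown (KD) group. All 6 were tetraploid chimeras, so the tissue analysed derives from injected ES cells, in WT with no edit and in KD with the genotype Tbx5ua -/-. Tbx5ua is the long non-coding RNA transcribed divergently from Tbx5, and the KD cells carry tandem polyadenylation signals in its second exon on both alleles, which end the transcript early while leaving its start in place. The edited cells were clonal, and which clone gave which embryo is not stated in the sources used here.

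Each group has 1 FPKM value for a gene (mapped fragments scaled to transcript length and to the total mapped), made by the authors from all embryos of the group. A value for each embryo is not in the table, so no SD, interval or test between WT and KD is given here, and whether a difference exceeds the spread between embryos cannot be said. Differences are log2 ratios of KD over WT with a pseudocount of 0.1 FPKM, which understates those of weak genes, most where a value is below 1 FPKM. A gene passed the filter with at least 1 FPKM in either group, and a 1.5-fold difference (0.58 as a log2 ratio) was used to count the larger differences. All 10 genes passed, Chac1 narrowly with its WT value. The read depth is unknown. In whole tissue, fewer cells of a type and less RNA in each cell cannot be told apart.

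As background, the endoplasmic reticulum (ER) folds secreted and membrane proteins with chaperones, and misfolded protein there is sensed by IRE1, ATF6 and PERK. IRE1 splices the Xbp1 messenger, ATF6 is cut to release a transcription factor, and PERK phosphorylates the initiation factor eIF2. The integrated stress response shares that last step with kinases that sense amino acid shortage, heme deficit or double-stranded RNA: general translation drops while translation of Atf4 increases. ATF4 then activates genes of amino acid supply and further factors such as Ddit3 and Atf3. In the heart these pathways are known for tuning folding capacity to the load of secreted and membrane proteins.

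Promoters of stress response genes can carry known stress elements, which are shown because 7 of the 10 windows hold one of them. The elements are known from genes of this kind, so matches in them are no independent result. Shares of all windows are given for scale, and no enrichment was tested. RefSeq promoter windows on GRCm38.p6, from 250 bases before to 50 bases after the gene start, matched all 10 genes. In 8 of them the first transcribed bases were found in a GENCODE transcript of the gene, Xbp1 and Trib3 being the exceptions. The Xbp1 window starts from a site 326 bases upstream of the gene start in the deposited table. The ER stress element (ERSE), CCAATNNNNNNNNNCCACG on either strand, was in the windows of Hspa5, Hsp90b1 and Calr and in 0.119% of 32851 windows of all genes. Its first letters are a CCAAT box, which alone was in 37.4% of windows. Each stretch is written along the strand of its gene with the ERSE in capitals.
Hspa5, chr2:34772015-34772053, plus strand: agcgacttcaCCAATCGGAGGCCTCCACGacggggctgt
Hsp90b1, chr10:86705628-86705666, minus strand: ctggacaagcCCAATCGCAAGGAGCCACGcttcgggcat
Hsp90b1, chr10:86705523-86705561, minus strand: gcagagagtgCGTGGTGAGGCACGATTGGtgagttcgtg
Calr, chr8:84847065-84847103, minus strand: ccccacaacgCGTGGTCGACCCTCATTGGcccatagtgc

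The ERSE of Hspa5 and the upstream one of Hsp90b1 lie in the direction of the gene, and the other of Hsp90b1 and that of Calr are inverted. The core of the C/EBP-ATF response element (CARE), to which ATF4 binds with C/EBP partners, was searched as TGATGNAA on both strands. It was in the windows of Atf3, Asns, Chac1 and Trib3 and in 3.97% of all windows, so a match is more common than one to the ERSE. In Trib3 the match, TTACATCA, lies at bases 15 to 22 after the RefSeq start. The GENCODE gene of Trib3 starts further on, at base 152344032, so the match lies upstream of that start. The GENCODE genes of Atf3 and Asns start further upstream, at bases 191218039 and 7693254, so their matches lie inside those genes. By the RefSeq starts the other 3 matches stand upstream, with the CARE in capitals.
Atf3, chr1:191183426-191183453, minus strand: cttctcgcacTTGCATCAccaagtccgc
Asns, chr6:7693215-7693242, minus strand: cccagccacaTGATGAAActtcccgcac
Chac1, chr2:119351039-119351066, plus strand: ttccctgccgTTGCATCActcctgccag

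Neither element was in the windows of Xbp1, Ddit3 and Atf4. The CRE (TGACGTCA, in 1.79% of all windows) and the UPRE core (TGACGTGG, in 0.676%) were in 0 of the 10 windows. A match is a run of letters and not a shown binding site, and no match says only that these letters are not in this window.

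**Figure D1:**
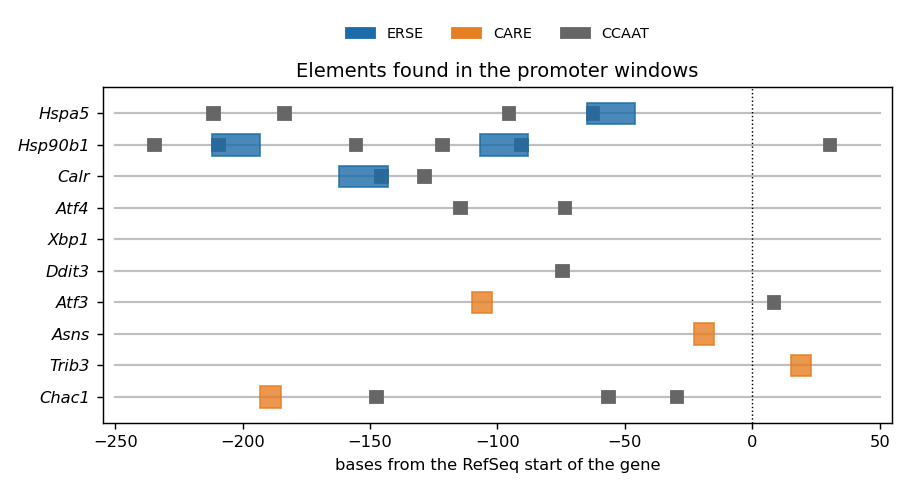
Position of each element in the promoter window of the 10 genes, in bases from the RefSeq start (dotted line), with ERSE in blue, CARE in orange and CCAAT boxes in grey. The ERSE matches lie in the 3 chaperone genes, and the CARE matches in Atf3, Asns, Trib3 and Chac1.

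The ER chaperones were the most abundant of the 10 genes. Hspa5 and Calr had nearly equal levels in both groups, and Hsp90b1 was slightly lower in KD. Hspa5, which encodes BiP, the ER Hsp70 that binds unfolded chains and holds the sensors inactive, had 403 FPKM in WT against 403 in KD. Its log2 ratio was -0.0017, and by its WT level it ranked 369 among the 11606 genes past the filter. Hspa5 lies at chromosome 2, bases 34772090 to 34776529 in the table. Hsp90b1, the ER Hsp90 known as GRP94, at chromosome 10, bases 86690841 to 86705444, had 330 FPKM in WT against 298 in KD, a log2 ratio of -0.15. Its exons share 415 bases in GENCODE with 1810014B01Rik, a pseudogene on the opposite strand. Calr, calreticulin, a lectin chaperone that also binds calcium, at chromosome 8, bases 84842088 to 84846931, had 283 FPKM in WT against 294 in KD, a log2 ratio of 0.06. The order Hspa5, Hsp90b1, Calr was kept in KD, where Hsp90b1 and Calr came within 4.01 FPKM of each other.

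The transcription factors held the largest differences of the set, with lower KD values in Atf3, Ddit3 and Atf4. Atf3, a bZIP factor induced by stress and also an immediate early gene, had 14.5 FPKM in WT against 8.09 in KD, 1.80-fold lower before any pseudocount, with a log2 ratio of -0.84. It lies at chromosome 1, bases 191170297 to 191183333. Ddit3, which encodes CHOP, a C/EBP family factor known for promoting cell death in prolonged ER stress, had 15.5 FPKM in WT against 10.8 in KD, 1.43-fold lower, with a log2 ratio of -0.51. Atf4, the translationally controlled factor of the integrated stress response, at chromosome 15, bases 80255184 to 80257541, had 103 FPKM in WT against 85.5 in KD, 1.2-fold lower, with a log2 ratio of -0.26. Xbp1, the IRE1-dependent factor of the unfolded protein response, at chromosome 11, bases 5520967 to 5525872, went the other way, with 94.7 FPKM in WT against 103 in KD and a log2 ratio of 0.12. The table has 1 value for Xbp1, so the spliced and unspliced messengers are not separated.

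Ddit3 is the 1 gene of the set whose locus in the table holds another gene. That locus, at chromosome 10, bases 127290793 to 127311786, is shared with Mars, a methionyl-tRNA synthetase gene on the opposite strand, and their exons share 68 bases in GENCODE. A strand-specific count is not stated for these libraries, and reads in that overlap could then belong to either gene. Mars had 42.5 FPKM in WT against 38.2 in KD, a log2 ratio of -0.15. Whether reads of Mars have a part in the Ddit3 value was not tested.

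Of the targets of ATF4, Asns and Trib3 had higher KD values and Chac1 a slightly lower one. Asns, asparagine synthetase, at chromosome 6, bases 7675171 to 7693182, had 56.4 FPKM in WT against 65.6 in KD, a log2 ratio of 0.22, the highest of the 10. Trib3, a pseudokinase that restrains ATF4 and AKT signalling, at chromosome 2, bases 152337425 to 152344060, had 2.07 FPKM in WT against 2.38 in KD, a log2 ratio of 0.19. Chac1, an enzyme that degrades glutathione, at chromosome 2, bases 119351242 to 119354327, was the weakest, with 1.02 FPKM in WT against 0.971 in KD and a log2 ratio of -0.06. Trib3 and Chac1 are at a level where a few reads can move the ratio, and without the depth that error cannot be given. Asns stood 27.2-fold above Trib3 in WT and 27.6-fold in KD on the per-length scale of FPKM.

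**Figure D2:**
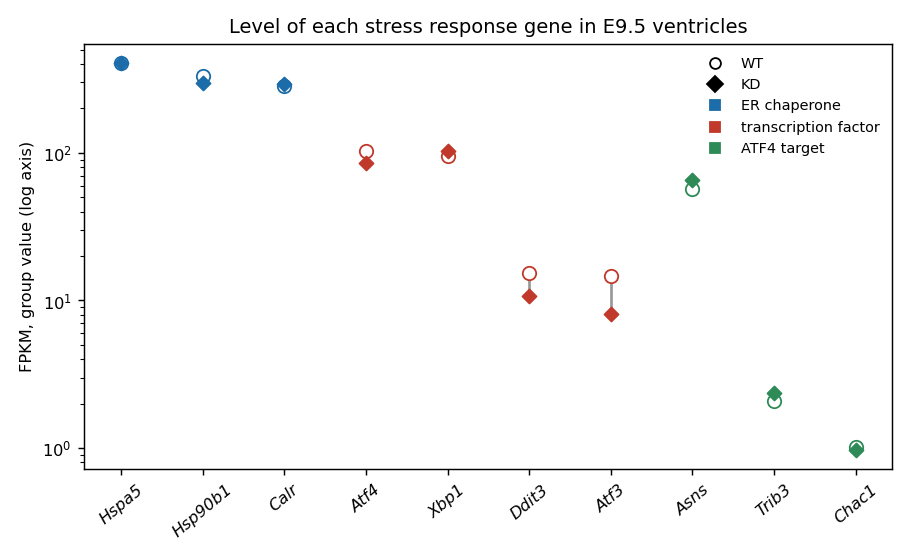
FPKM of each of the 10 genes in WT (open circles) and KD (diamonds) on a log axis, 1 group value each with no error, coloured by role. Levels run from about 1 FPKM for Chac1 to 403 FPKM for Hspa5, and Atf3 and Ddit3 have the widest gaps between the symbols.

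Counted over the set, 1 of the 10 genes, Atf3, differed by at least 1.5-fold, and 7.58% of all genes past the filter did so. That share was 4.48% for higher and 3.10% for lower KD values, so 1 gene in 10 is close to what the table holds in general. Of the genes with a mean of 10 to 100 FPKM, the range that holds Atf3, Ddit3 and Atf4, 1.08% were lower in KD by 1.5-fold or more. Among the 3811 genes within 2-fold of its mean level, 26 genes (0.682%) had a log2 ratio as low or lower, and 66 genes (1.73%) had one at least as large in either direction. For Ddit3 these were 66 (1.76%) and 166 (4.42%) of 3757 genes, and for Atf4 57 (3.96%) and 134 (9.31%) of 1439 genes. The 3 genes were singled out after their values were seen. These shares place the ratios among genes of like level and are no measure of the spread between embryos. At a log2 ratio of at least 0.32 in size Ddit3 joined Atf3, which makes 2 of 10 genes where 21.5% of all genes were past that threshold, and at 2-fold there were 0 of 10 where 2.49% of all genes were.

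The median log2 ratio of the 10 genes was -0.03, and that of all genes past the filter was 0.0049. In KD 6 of the 10 were lower and 4 were higher, and of all genes past the filter 49.1% were lower. The median size of the log2 ratio, without its sign, was 0.17 for the 10 genes and 0.15 for all genes.

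**Figure D3:**
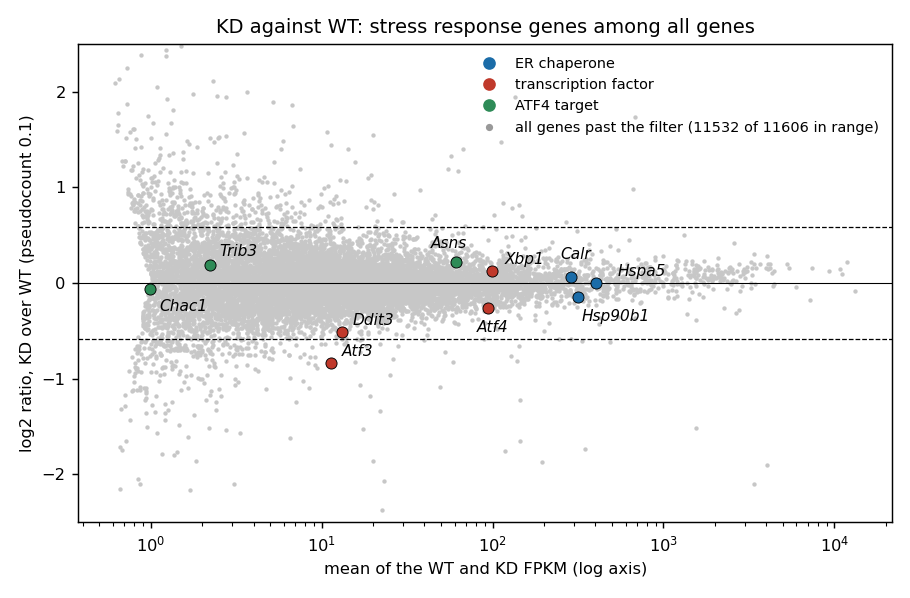
Log2 ratio of KD over WT against the mean FPKM (log axis) for genes past the filter, of which 11532 of 11606 are in range, with the 10 genes coloured by role and dashed lines at 1.5-fold. Atf3 is below the lower line, Ddit3 is just above it, and the 3 chaperones are near 0 at the right.

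Set against each other on the per-length FPKM scale, Atf4, Ddit3 and Atf3 were further apart in KD. Atf4 stood 7.06-fold above Atf3 in WT and 10.6-fold in KD, and 6.64-fold above Ddit3 in WT and 7.92-fold in KD. Ddit3 and Atf3 were 1.06-fold apart in WT and 1.33-fold in KD. The ratio of Asns to Atf4 was 0.55 in WT and 0.768 in KD. Hspa5 was 1.43-fold above Calr in WT and 1.37-fold in KD, and 1.22-fold above Hsp90b1 in WT and 1.35-fold in KD.

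The other genes of these pathways were taken from 7 lists, of which 98 genes besides the 10 were in the table and 92 passed the filter. Of the 92, 4 were higher by 1.5-fold or more in KD (Cebpb, Creb3l1, Bbc3 and Gadd45a) and 1 was lower (Slc6a9), a share of 5.43% against the 7.58% of all genes. All 5 stood below 5 FPKM in both groups, so 0 of 66 genes were past 1.5-fold with at least 5 FPKM in either group. With a pseudocount of 1 there were 2 of 92, both higher. The shares of all genes at that filter and that pseudocount were not computed, so nothing about the pathways is read from these counts. The median log2 ratio of the 92 was -0.02, with 53 of the 92 below 0, where 49.1% of all genes were.

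In the list of ER chaperones and folding enzymes 0 of 21 genes differed by 1.5-fold, where 7.58% of all genes did. That share is not matched for level, and many genes of the list are abundant. Values lower in KD by 1.5-fold made up 1.08% of genes with a mean of 10 to 100 FPKM, against 3.10% of all genes. The count of 0 is therefore not read as a trait of the list. The median log2 ratio was -0.0057. The highest ratios were those of Ero1lb, an ER oxidase, with 0.859 FPKM in WT against 1.11 in KD (log2 ratio 0.33), which passed the filter through its KD value alone, and of Sil1, the exchange factor of BiP, with 9.92 FPKM in WT against 12.2 in KD (0.29). The lowest were those of Creld2, with 87.1 FPKM in WT against 72.5 in KD (-0.26), and of Dnajb9, a co-chaperone of BiP, with 26.2 FPKM in WT against 21.8 in KD (-0.26). With the 3 chaperones above, 8 of the 17 genes of this list with a promoter window hold an ERSE, as did 0.119% of all windows. That share is given for scale, since the element is known from genes of this kind. The others are Canx, Creld2, Dnajc3, Ero1lb and Pdia6. Over all the lists with windows for at least 80% of their genes, 10 genes past the filter held an ERSE, with log2 ratios from -0.26 to 0.33, a median of -0.0034 and 0 past 1.5-fold. The CARE was in 9 such genes, of which Atf3 was the 1 past 1.5-fold. Their median log2 ratio was -0.05, with 4 above 0 and 5 below. Both counts past 1.5-fold are close to the 7.58% of all genes. Of the tRNA synthetases 9 had a window, and 5 of these (Aars, Gars, Iars, Tars and Yars) held a CARE. These 5 are left out of the CARE genes counted above. Their log2 ratios were all below 0, at -0.06, -0.05, -0.07, -0.16 and -0.08 in that order. The windows cover 69.2% of the tRNA synthetase list, so no share is read from it, and 75.2% of all genes of the table had a window.

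Of 14 genes of ER-associated degradation, which returns misfolded chains to the proteasome, 0 differed by 1.5-fold. Of all genes past the filter 7.58% did, so 0 of 14 is close to that share. The lowest was Herpud1, a stress-induced membrane protein of the retrotranslocation complex, with 40.4 FPKM in WT against 29.1 in KD, a log2 ratio of -0.47. The highest were Sel1l, the partner of the ligase Syvn1, with 6.85 FPKM in WT against 9.04 in KD (0.39), and Os9, a lectin, with 3.53 FPKM in WT against 4.2 in KD (0.25). Vcp, the ATPase that extracts the chains and the most abundant of the list, had 313 FPKM in WT against 321 in KD.

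Among the sensors and the genes that control eIF2, 0 of 16 differed by 1.5-fold, close to the 7.58% of all genes. Atf6 had 5.54 FPKM in WT against 4.06 in KD (log2 ratio -0.44), while Mbtps2, a protease that cuts ATF6, had 2.98 FPKM in WT against 4.04 in KD (0.43). Eif2ak3, which encodes PERK, had 1.37 FPKM in WT against 1.03 in KD (-0.38), and Eif2ak4, the kinase GCN2 that senses amino acid shortage, had 3.10 FPKM in WT against 4.0 in KD (0.36). Eif2s1, the eIF2 subunit that these kinases phosphorylate, had 82.8 FPKM in WT against 81.3 in KD. The messenger of a sensor does not show its activity.

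Of 11 stress transcription factors past the filter, Cebpb and Creb3l1 were higher by at least 1.5-fold in KD and Atf3 was lower, where of all genes 4.48% were higher and 3.10% lower. Cebpb, a C/EBP factor that can pair with ATF4, had 0.387 FPKM in WT against 2.62 in KD. Its log2 ratio was 2.48, which the pseudocount lowers. Creb3l1, an ER-bound factor processed like ATF6, had 2.29 FPKM in WT against 3.77 in KD (0.69). Both were below 5 FPKM in each group, and Cebpb passed the filter through its KD value alone.

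The ATF4 targets had values on both sides of 0. In the list of amino acid supply 1 of 16 genes differed by 1.5-fold, near the 7.58% of all genes, the glycine transporter Slc6a9, with 2.02 FPKM in WT against 1.22 in KD (log2 ratio -0.68). Slc38a2, a transporter of neutral amino acids, had 31.6 FPKM in WT against 26.1 in KD (-0.28). On the other side were Gpt2, an alanine aminotransferase, with 3.33 FPKM in WT against 4.44 in KD (0.40), Shmt2, a mitochondrial enzyme of serine and glycine metabolism, with 68.2 FPKM in WT against 83.4 in KD (0.29), and Phgdh, which opens serine synthesis, with 85.4 FPKM in WT against 101 in KD (0.24). In the list of feedback and cell fate 2 of 11 genes were higher by 1.5-fold or more in KD, as were 4.48% of all genes, and both were below 5 FPKM in each group. Gadd45a, a growth arrest gene, had 1.23 FPKM in WT against 2.22 in KD (0.80), and Bbc3, the pro-apoptotic PUMA, had 2.44 FPKM in WT against 4.29 in KD (0.79). Both are also targets of p53. The lowest were Tnfrsf10b, a death receptor, with 2.90 FPKM in WT against 2.57 in KD (-0.17), and Vldlr, a lipoprotein receptor, with 1.19 FPKM in WT against 1.09 in KD (-0.11). Eif4ebp1, the translation inhibitor and the most abundant of the list, had 342 FPKM in WT against 362 in KD.

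The tRNA synthetases, many of them ATF4 targets, had small differences. Of the 13 genes, which include the tRNA exporter Xpot, 10 were lower in KD and 3 higher, where 49.1% of all genes were lower. Their log2 ratios ran from -0.17 for Xpot and -0.16 for Tars to 0.05 for Sars and 0.06 for Wars. The median was -0.08, and 0 of 13 were past 1.5-fold, close to the 7.58% of all genes, a share not matched for level. Gars, the most abundant, had 140 FPKM in WT against 135 in KD.

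**Figure D4:**
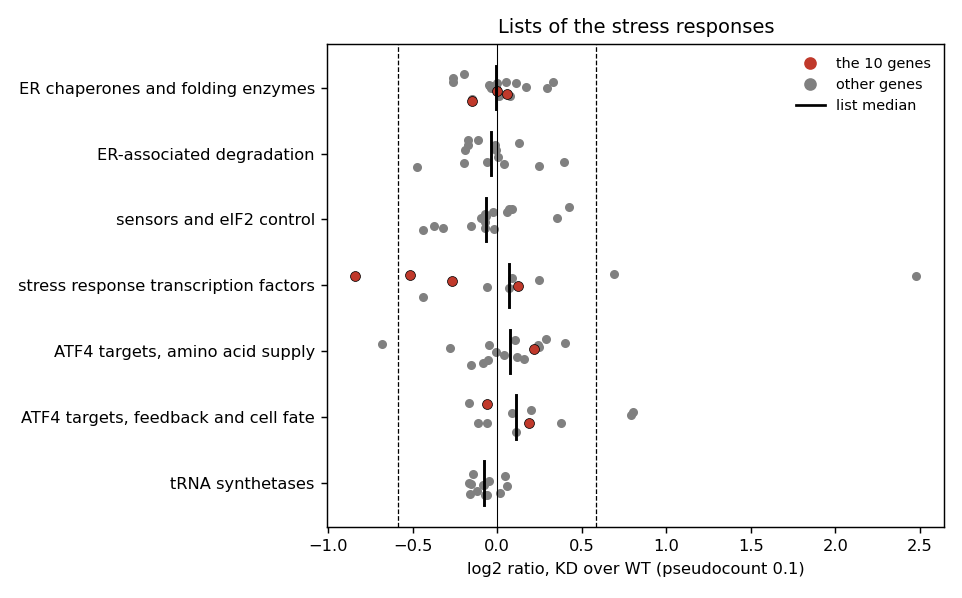
Log2 ratio of KD over WT for genes past the filter in each of the 7 lists, with the 10 genes in red, other genes in grey, list medians as bars and dashed lines at 1.5-fold. The transcription factor list runs from Atf3 at -0.84 to Creb3l1 at 0.69 and Cebpb at 2.48, the last with a WT value under the filter, and the tRNA synthetases run from -0.17 to 0.06.

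Atf3 is also counted among the immediate early genes, a class looked at with the value of Atf3 known. Of 7 such genes past the filter Atf3 had a lower KD value, as had 49.1% of all genes, and 6 had higher ones, with log2 ratios of 0.91 for Egr1, 0.39 for Junb, 0.20 for Jun, 0.17 for Fos and 0.05 for both Ier2 and Dusp1. Of these 6 genes 1, Egr1, was past 1.5-fold, where 4.48% of all genes were higher by that much.

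The tissue label was checked against cell type markers, since these could move with the groups. Ventricular and other cardiomyocyte markers were abundant in both groups, with Myl2 at 10924 FPKM in WT against 12702 in KD, and 0 of 10 differed by 1.5-fold. Of the endocardial markers 0 of 8 and of the erythroid markers 0 of 8 differed by 1.5-fold. Of all genes past the filter 7.58% did, so a count of 0 in lists this short is close to that share. Of 6 epicardial markers past the filter 5 were at least 1.5-fold higher in KD, as were 4.48% of all genes, and 1 of the 5, Aldh1a2, passed the filter through its KD value alone. The summed level of the 7 markers in the table was 47.1 FPKM in WT against 96.0 in KD. Of the 6 hepatic and yolk sac markers 0 reached 1 FPKM, and Alb and Fgb are listed at 0. The part of the epicardial markers' difference in the values of Atf3, Ddit3 and Atf4 was not tested. The targeted Tbx5ua is not analysed here, so the group labels have no check from it.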

How the data were processed

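Smart-Seq2 libraries (single-end reads) from 6 samples were processed by the authors. The submitters' processing notes name TopHat, Bowtie2, Cuffdiff and build mm10, without versions, and the gene annotation is not given in the sources used here. The authors deposited 1 FPKM value per gene and group, WT and KO, and KO was read as the KD group. The table's fold changes, test statistics, p-values and q-values are comparisons of the authors and were not used. A total of 2 genes are marked as having too many reads to test and neither is a member. Of per-sample value columns 0 were left unused. Starts are given with 1 added.

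From the FPKM values, log2 ratios (pseudocount 0.1; at least 1 FPKM in either group) and counts past 1.5-fold were computed across all genes, with no test. The calls were tested on made-up values with known folds. Genes named from the wider lists were those past 1.5-fold, the 2 highest and 2 lowest ratios and the most abundant gene of each list. 1 gene that the rule names is not reported here. Others (Mars, Aars, Iars, Yars, Canx, Dnajc3, Pdia6, Egr1, Junb, Jun, Fos, Ier2, Dusp1, Aldh1a2, Myl2, Alb and Fgb) were named after their values were seen. Of the genes listed for the pathways 1 was not found by symbol. Members and lists were chosen with earlier results of these data known, and the promoter elements were searched after the table was seen. Promoters are RefSeq's (GRCm38.p6, the assembly of mm10) and exon overlaps come from GENCODE release M21. The software was Python 3.11.15 with NumPy 2.4.6, pandas 2.3.3 and Matplotlib 3.10.9. The alternatives were other pseudocounts, filters, thresholds and scalings.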

Additional observations from a re-analysis of the deposited data

How the results depend on the processing

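No paired analysis was possible because values of single embryos are not in the table, and leaving out replicates was not run for the same reason. The count of 1 member past 1.5-fold, Atf3, was the same in all alternatives of pseudocount, filter and scaling. It was 0 at 2-fold and 2 at a log2 ratio of at least 0.32 in size. A stricter threshold cannot raise the count and a looser one cannot lower it. The log2 ratio of Atf3 ran from -0.87 to -0.77 and that of Ddit3 from -0.54 to -0.48, and no member changed sign. The median over the members, -0.03, was -0.0745 with at least 5 FPKM in either group, which leaves out Trib3 and Chac1, -0.0611 with groups scaled to the same sum, -0.0368 less the median of all genes, -0.0350 with no pseudocount and -0.0179 with a pseudocount of 1. Without Ddit3, whose locus holds Mars, it was -0.0017, an alternative chosen after seeing the data. With 1 value per group any change at 2 decimals counted as a move. Of the 92 other pathway genes 5 were past 1.5-fold. At 2-fold there was 1, where 2.49% of all genes were past that threshold. At a log2 ratio of at least 0.32 there were 15, where 21.5% of all genes were. The count was 7 of 97 with no filter, 2 of 92 with a pseudocount of 1 and 0 of 66 with at least 5 FPKM in either group. Shares of all genes at those settings were not computed. The 5 stood below 5 FPKM in both groups. Their counting error cannot be given without the depth.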
